A study of Mus musculus with 2 samples.

Results

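The Arl4c locus on mouse chromosome 1 is a stretch of sparse genes that held 35 of the 22286 deposited Tcf1 binding peaks (0.157%). Its peaks were chosen by position alone: a peak belonged to the locus when its summit, the base with the highest coverage, lay in the Arl4c gene body or within 200 kb of either end of the gene. The locus itself had been picked because its peaks lie densely, so the number of peaks and their spacing are given as a description and no test was made on them. In the mm9 genome with the GENCODE vM1 annotation, Arl4c (ENSMUSG00000049866.6) lies on the minus strand at chr1:90569700-90598796, a length of 29.1 kb, and the window reaches from 90369700 to 90798796, a length of 429.1 kb. The gene body joins different transcripts. Its start site is that of a transcript of 3997 bp. Its 3′ end is that of a transcript of 28752 bp, whose own start site lies 345 bp downstream of the first.

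Binding of Tcf1 was measured by ChIP-seq in naïve CD8+ T cells of the mouse spleen, in 1 library from WT cells and 1 from Tcf1-deficient cells, both precipitated with an antiserum to Tcf1. The labels describe the sorted cells as GFP+ TCRbeta+ CD62Lhi CD44lo-med CD8+. The series describes mice that carry hCD2-Cre, a transgene whose activity is highest in peripheral mature T cells, with a Cre-activated GFP in Rosa26 and either wild-type or floxed Tcf1 and Lef1. The control library is Tcf1-deficient by its title and Tcf1-/-Lef1-/- by its genotype label, whereas the methods name Cd4-Cre+ Tcf7 fl/fl mice, in which Cre acts in the thymus and Tcf7 (the gene for Tcf1) alone is deleted. Whether the control cells also lacked Lef1 is not settled by these sources, and the number of mice per library is not given in the sources used here. The methods give 1 age range, in weeks, for all mice of the study, these included, and state that both sexes were used. The sex behind each library is not given in the sources used here. RNA was not measured in these libraries, so the cell type was taken from the labels without a check against marker genes. After removal of duplicates, 36938606 fragments of the WT library and 27625250 of the Tcf1-deficient library were kept, and both numbers limit how weak a peak could be seen.

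Arl4c is a small GTPase of the ARF-like family that, bound to GTP at the plasma membrane, recruits cytohesins, the exchange factors that activate Arf6 and thereby act on actin and membrane shape. It is also known as a target of the liver X receptors, linked to cholesterol efflux through Abca1, and as a gene induced by Wnt and β-catenin signalling in epithelial cells. Tcf1 is an HMG-box transcription factor through which β-catenin can act in T cells. The study describes Tcf1 and its homologue Lef1 as redundant when CD8+ T cell identity is established in the thymus. RNA from Arl4c was not part of these data, and a peak near a gene does not say that the gene is controlled from it.

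The pileup of a peak is the number of WT fragments over its summit. The fold enrichment is that number plus 1, divided by the local level in the Tcf1-deficient library (scaled to the WT depth) plus 1, and the control level never goes below a floor of 5.42 fragments set by the whole library. A pileup does not separate the share of cells that are bound from how often a site is bound in each cell. With 1 library per group there was no replicate error, and the intervals given are 95% Poisson intervals of the pileup with the control level held fixed, which cover counting error only. Peaks are named by the distance of their summit from the Arl4c start site at 90598796, with upstream meaning the side of higher coordinates. Fold enrichment and peak calls come from the same 2 libraries, so every comparison of peaks below is between sites in 1 measurement.

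The 4 strongest peaks of the locus carried 43.6% of its summed pileup, and their sequences are shown first, as the 201 bases around each summit on the plus strand. Capitals mark a copy of a 7-base core for Tcf/Lef (ATCAAAG), Runx (TGTGGTT) or ETS (CGGAAGT) factors on either strand. The 2 strongest held none of these cores, the third held a Tcf/Lef core and the fourth a Runx core.
47.1 kb downstream, fold enrichment 59.8, chr1:90551576-90551776: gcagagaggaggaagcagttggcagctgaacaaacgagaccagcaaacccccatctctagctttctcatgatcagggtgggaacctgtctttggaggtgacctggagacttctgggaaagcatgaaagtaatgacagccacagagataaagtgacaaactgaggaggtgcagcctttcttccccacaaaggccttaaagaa
6.90 kb upstream, fold enrichment 41.1, chr1:90605592-90605792: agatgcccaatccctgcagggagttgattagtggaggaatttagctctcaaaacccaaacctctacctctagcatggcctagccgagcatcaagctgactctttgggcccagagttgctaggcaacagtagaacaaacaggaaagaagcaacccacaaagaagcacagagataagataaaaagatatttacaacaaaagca
57.6 kb downstream, fold enrichment 34.1, chr1:90541140-90541340: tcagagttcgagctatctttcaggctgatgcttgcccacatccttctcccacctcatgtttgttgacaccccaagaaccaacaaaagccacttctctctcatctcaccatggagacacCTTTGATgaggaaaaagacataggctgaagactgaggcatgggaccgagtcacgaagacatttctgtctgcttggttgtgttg
115 kb downstream, fold enrichment 24.0, chr1:90484010-90484210: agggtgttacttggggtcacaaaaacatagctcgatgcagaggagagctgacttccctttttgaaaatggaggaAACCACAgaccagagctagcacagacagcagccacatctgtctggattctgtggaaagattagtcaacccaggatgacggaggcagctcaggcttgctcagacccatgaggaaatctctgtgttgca

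The strongest peak of the locus, at chr1:90551134-90552448, lay 47.1 kb downstream of the start site and 18.0 kb beyond the 3′ end of Arl4c, in intergenic sequence. Its pileup was 383 fragments (346 to 423) and its fold enrichment 59.8 (54.0 to 66.1), which ranked it 52nd of the 22286 peaks. It was also the widest peak of the locus at 1315 bp, and ranked 509th by width in the whole list. The second, at chr1:90605392-90606187, lay 6.90 kb upstream of the start site with a pileup of 263 (232 to 297) and a fold enrichment of 41.1 (36.3 to 46.4), rank 216. Its level was 4.71 times that of the peak on the Arl4c start site itself. Next came the third, at chr1:90540911-90541560, had a pileup of 218 (190 to 249) and a fold enrichment of 34.1 (29.8 to 38.9), rank 409. The fourth, at chr1:90483666-90484478, had a pileup of 153 (130 to 179) and a fold enrichment of 24.0 (20.4 to 28.1), rank 1013. The intervals of these 4 lay above that of every other peak of the locus, and those of the second and the third overlapped.

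**Figure D1:**
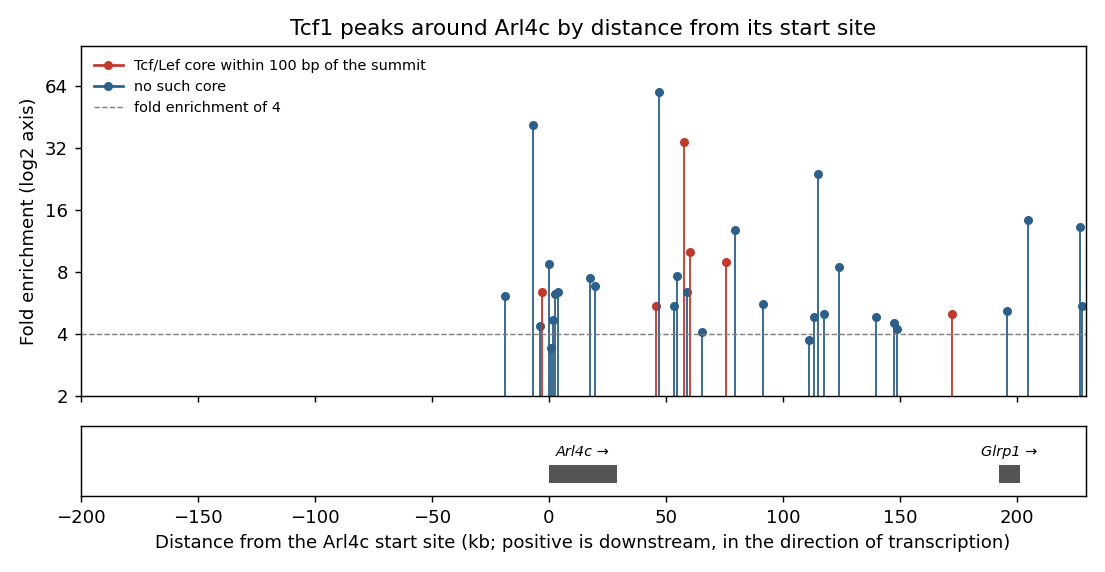
Fold enrichment (WT over Tcf1-deficient library, log axis) of each of the 35 Tcf1 peaks against the distance of its summit from the Arl4c start site in kb, with downstream to the right, red where the 201 bases held a Tcf/Lef core, a dashed line at a fold enrichment of 4, and the bodies of Arl4c and Glrp1 with their direction of transcription in the strip below. The tallest stand 47.1 kb downstream, 6.90 kb upstream, 57.6 kb downstream and 115 kb downstream, and no peak lies farther upstream than 18.7 kb.

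Of the 35 peaks, 33 (94.3%) had a fold enrichment of at least 4, the minimum the study set for high-confidence peaks, against 85.4% of the whole list. At least 20-fold enrichment was reached by 4 (11.4%), against 6.82% of the whole list. The median fold enrichment was 6.23 (5.14 to 7.63, interval of the median over peaks), and that of all peaks was 6.09. The median peak of the locus was thus close to that of the list, while its strongest peak was 9.60 times its median and 17.5 times its weakest. Under 6-fold enrichment, a line just below the median of all peaks, lay 16 peaks. For 16 peaks the lower bound of the Poisson interval was under 4, so the side of the minimum on which those lie was not fixed by the counts.

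Upstream of the start site there were 4 peaks, all within 18.7 kb of it, and they held 16.0% of the summed pileup of 2330 fragments. Next to the strong peak 6.90 kb upstream, a narrow peak 3.805 kb upstream had a pileup of 27 and a fold enrichment of 4.36. The peak 2.97 kb upstream, at chr1:90601577-90602122, had a pileup of 44, a fold enrichment of 6.41 (4.70 to 8.56) and a Tcf/Lef core 5 bp from its summit. The outermost, 18.7 kb upstream at chr1:90617319-90617722, had a pileup of 38 and a fold enrichment of 6.08. No further peak followed for 349.3 kb, of which 181.3 kb lay inside the window. Of the 22264 gaps between neighbouring summits in the list, 6.62% were at least as long. The next peak on that side lay 221 bp from a start site of Sh3bp4, a gene known for its part in endocytosis, with a pileup of 47 and a fold enrichment of 6.25.

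The peak on the Arl4c start site, at chr1:90598286-90599140, had its summit 13 bp downstream of that site in the 5′ UTR. With 55 fragments (41.4 to 71.6) it reached a fold enrichment of 8.73 (6.61 to 11.3), and at 855 bp it was the third widest peak of the locus. Its 201 bases were the richest in G and C of all 35, at 74.1%. The 250 bases before the start site, shown on the gene's own minus strand because the peak covers them, had a GC content of 70.8%, held 36 CG dinucleotides and none of the 3 cores.
bases before the Arl4c start site, minus strand, chr1:90598797-90599046: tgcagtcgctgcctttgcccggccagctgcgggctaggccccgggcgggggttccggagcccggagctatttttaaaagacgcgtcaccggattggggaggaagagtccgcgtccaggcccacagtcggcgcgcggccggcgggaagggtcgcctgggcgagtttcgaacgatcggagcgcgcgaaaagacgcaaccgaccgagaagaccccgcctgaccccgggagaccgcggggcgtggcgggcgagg

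Inside the gene, 7 summits were found including that at the start site, and together they held 11.8% of the summed pileup. The weakest and narrowest peak of the locus, at chr1:90597872-90598086, lay in the only coding exon, 751 bp downstream of the start site, with a pileup of 21 (13.0 to 32.1), a fold enrichment of 3.43 (2.18 to 5.16) and a width of 215 bp. In the long 3′ UTR of the Arl4c-001 transcript lay 3 summits, 1.62, 2.71 and 3.86 kb downstream of the start site. Their fold enrichments were 4.67, 6.23 and 6.39, and their intervals overlapped. A pair followed at 17.3 and 19.7 kb, in an intron, with fold enrichments of 7.48 and 6.86. No peak in the gene reached 10-fold enrichment, and from the start site to the gene's end the median fold enrichment was 6.39.

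Beyond the 3′ end of Arl4c lay 24 of the 35 peaks (68.6%), with 72.3% of the summed pileup and 3 of the 4 peaks at 20-fold enrichment or more. In the first 60 kb past the gene's end there were 10 peaks with a median fold enrichment of 8.26 and 42.6% of the locus's pileup. Besides the strongest and the third strongest peaks of the locus, these included the eighth, 60.2 kb downstream at chr1:90538292-90538865 (pileup 63, fold enrichment 9.97, 7.70 to 12.7), and the seventh, 79.6 kb downstream at chr1:90518733-90519499 (pileup 81, fold enrichment 12.8, 10.2 to 15.8). The peaks 53.3, 54.5 and 58.9 kb downstream, on either side of the third strongest, had pileups of 34, 48 and 40 and fold enrichments of 5.45, 7.63 and 6.39. Farther out lay 14 peaks with a median fold enrichment of 5.06 and 29.7% of the pileup. Among those were the fourth strongest, 115 kb downstream, and a pair of strong peaks close to the 3′ edge of the window. A weak stretch ran from 140 to 172 kb downstream, where 4 peaks had pileups of 30, 28, 26 and 31 and fold enrichments of 4.83, 4.52, 4.21 and 4.99, all with overlapping intervals.

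That pair held the fifth and sixth ranks of the locus. The peak at chr1:90393987-90394493, 205 kb downstream, had a pileup of 91 (73.3 to 112), a fold enrichment of 14.3 (11.6 to 17.6) and rank 2864 in the whole list. The other, at chr1:90371931-90372495, 227 kb downstream, had a pileup of 84 (67.0 to 104), a fold enrichment of 13.2 (10.6 to 16.4) and rank 3306. Between Arl4c and these lies Glrp1 (ENSMUSG00000062310.6, chr1:90397698-90406461, minus strand), the only other annotated gene of the window, and 1 of the 35 summits lay in it, in an intron, with a pileup of 32 and a fold enrichment of 5.14. The strong peak 205 kb downstream lies past the 3′ end of Glrp1, so distance from Arl4c alone does not assign it. For every peak from 111 kb downstream on, the fourth to sixth strongest included, the nearest annotated start site was that of Glrp1. Those peaks are likewise not assigned to Arl4c by distance.

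By place, 27 summits were intergenic, 7 lay in Arl4c and 1 in Glrp1. A start site of an annotated transcript lay within 1 kb of 2 summits (5.71%), against 39.2% of the whole list, and both of those belonged to Arl4c. Only Arl4c and Glrp1 had start sites in the window. Among the 33 distal peaks the median fold enrichment was 6.23, equal to that of all distal peaks at this rounding, and the median GC content of the 201 bases was 48.3% in both.

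Ordered by fold enrichment, 31 of the 34 neighbouring pairs in the order had overlapping intervals. The 3 steps without overlap were those from 59.8 to 41.1, from 34.1 to 24.0 and from 24.0 to 14.3. Below these, the fifth to seventh peaks, at 14.3, 13.2 and 12.8, were within counting error of each other, and so was each later peak with the next one down. The order by pileup and the order by −log10 q named the same 8 strongest peaks. At 31 of the 35 summits (88.6%) the control stood at its floor, against 82.9% of all peaks, so that the fold enrichment there follows the pileup alone. The 4 summits above the floor had control levels between 6.02 and 8.02 fragments, and none of the 8 strongest peaks was among them. The highest, 8.02, belonged to the peak 65.4 kb downstream, whose pileup of 36 gave a fold enrichment of 4.10. The second highest, 7.35, belonged to the peak 111 kb downstream, which with a pileup of 30 and a fold enrichment of 3.71 (2.54 to 5.25) was the other peak under 4-fold.

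**Figure D2:**
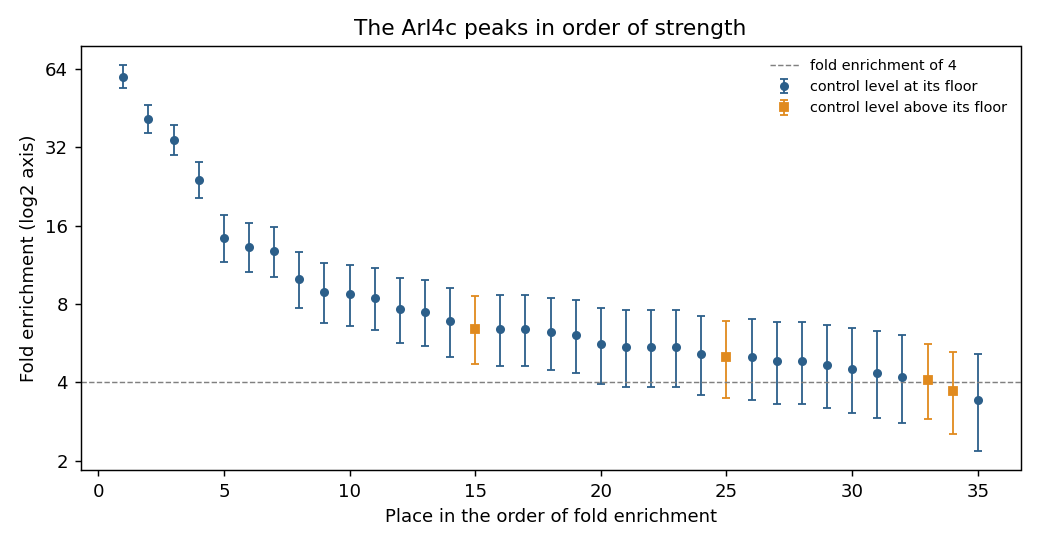
Fold enrichment on a log axis of the 35 peaks in falling order, with 95% Poisson intervals of the pileup and orange squares for the 4 peaks whose control level was above its floor. The first 4 points, at 59.8, 41.1, 34.1 and 24.0, stand above the others, and from the fifth on each interval overlaps the next.

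The 35 summits spanned 246.1 kb, and their spacing was uneven. Of the 34 gaps between neighbours, the median was 3.08 kb (1.424 to 8.998, interval of the median), the shortest 738 bp and the longest 25.9 kb, where the median of all gaps in the list was 22.0 kb. Gaps under 1500 bp numbered 12 (35.3%), against 8.32% of all gaps, and gaps over 10 kb numbered 10. Another summit lay within 10 kb of 32 of the 35 (91.4%), against 53.0% of the whole list. In the window there were 8.16 peaks per 100 kb, against 0.842 over the genome, and the peaks covered 4.14% of its bases, against 0.434%. These densities restate why the locus was picked.

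Linking summits less than 10 kb apart gave 11 groups, of which 3 were single peaks. The largest were 2 groups of 8 peaks each. One ran from 6.90 kb upstream to 3.86 kb downstream of the start site, a span of 10.8 kb, and held 518 fragments of summed pileup, with 263 of them in its strongest peak. The other ran from 45.6 to 65.4 kb downstream, a span of 19.7 kb, held 856 fragments and included the strongest peak, the third and the eighth. A group of 5 from 111 to 124 kb downstream held 300 fragments around the fourth strongest peak. Beside some of the strong peaks, but not all, stood a weak one. The peak 45.6 kb downstream, with a pileup of 34 and a fold enrichment of 5.45, lay 1485 bp from the strongest. That at 58.9 kb, with a pileup of 40, lay 1381 bp from the third strongest, that at 113 kb lay 1424 bp from the fourth, and the last of the window lay 880 bp from the sixth. How far the flank of a broad strong site contributes to a close weak one was not tested. Joining peaks whose edges were 1 kb or less apart left 23 regions, with a median gap of 8.41 kb between their strongest summits, and the 11 peaks of at least 8-fold enrichment had a median gap of 12.9 kb.

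**Figure D3:**
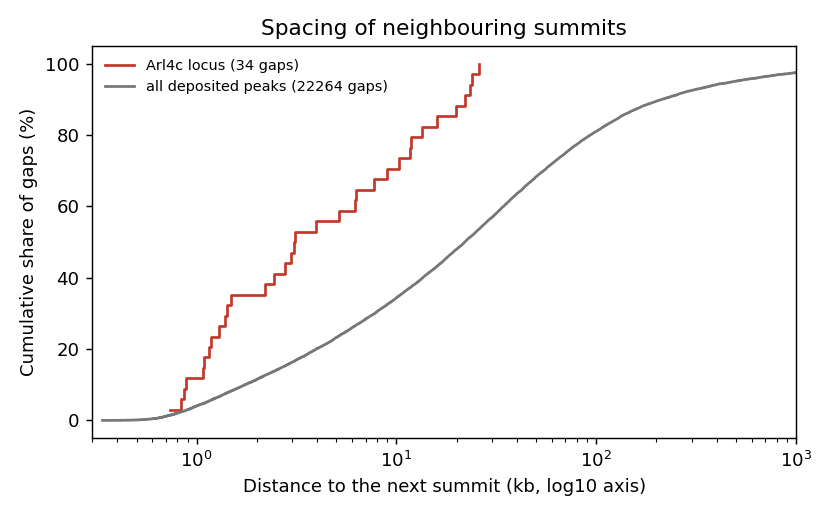
Cumulative share of gaps (%) against the distance between neighbouring summits in kb on a log axis that ends at 1000 kb, for the Arl4c locus (red, 34 gaps) and the whole list (grey, 22264 gaps). The red line stands to the left of the grey one, with medians of 3.08 kb and 22.0 kb.

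Width followed strength. The peaks were between 215 and 1315 bp wide, with a median of 451 bp (356 to 574, interval of the median) against 446 bp for all peaks. Only 1 peak reached 1000 bp, where 6.33% of all peaks did, and 5 (14.3%) were under 300 bp, against 23.5% of all peaks. Across the 35 peaks Spearman's rho of width with fold enrichment was 0.814 (Pearson's r on log2 values 0.770), and over all peaks rho was 0.723. Peaks share the libraries and the peak caller, which extends a peak for as long as coverage stays past its limit, so this is a description across sites. Width and strength also parted at single sites. The peak 57.6 kb downstream and the peak 91.3 kb downstream were 650 and 651 bp wide, and their fold enrichments of 34.1 and 5.61 differed 6.08 times. The second widest peak, 124 kb downstream with 862 bp, had a fold enrichment of 8.41, and its summit lay 176.5 bp off its centre, where the median offset of the locus was 38 bp. Strength did not follow distance from the start site, with a rho of -0.0521 over the 35 peaks.

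**Figure D4:**
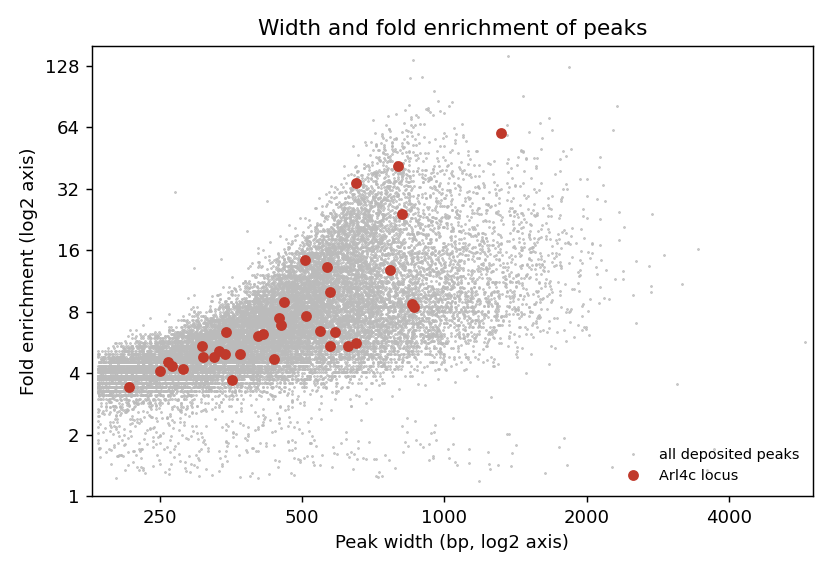
Peak width in bp against fold enrichment, both on log axes, for the 35 peaks of the Arl4c locus (red) over all 22286 peaks (grey). Wider peaks were stronger (rho 0.814 at the locus), and at 650 and 651 bp the locus held peaks of 34.1 and 5.61 fold enrichment.

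The Tcf/Lef core is the sequence that the HMG box of Tcf1 prefers. A copy within 100 bp of the summit was found in 6 of the 35 peaks, 17.1% (8.10 to 32.7, Wilson 95% interval), against 9.76% of the whole list. In windows of the same size 2 kb to each side it was found in 3 of 70 (4.29%), where 8 of the 70 windows overlapped another peak of the locus, and over the whole list these flanks held it in 3.30%. Among distal peaks the share was 18.2% (8.61 to 34.4) at the locus and 12.9% over the list. The peaks are neighbours at 1 locus and not replicates, so these intervals are no test against the list. The direction turned with looser cores: the 6-base TCAAAG was in 20% of the locus's peaks against 25.3% of all, and 4 related 7-base cores, chosen after seeing the data, were in 25.7% against 27.1%. The same letters read backwards, GAAACTA, occurred in 1 peak. Besides the third strongest peak, the sequences with a Tcf/Lef core were the 5 below, and in 4 of these the core lay 3 to 8 bp from the summit.
2.97 kb upstream, fold enrichment 6.41, chr1:90601663-90601863: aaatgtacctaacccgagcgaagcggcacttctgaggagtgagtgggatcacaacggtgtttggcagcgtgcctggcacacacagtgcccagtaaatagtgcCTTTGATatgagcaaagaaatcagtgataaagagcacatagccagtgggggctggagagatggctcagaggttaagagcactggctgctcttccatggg
45.6 kb downstream, fold enrichment 5.45, chr1:90553061-90553261: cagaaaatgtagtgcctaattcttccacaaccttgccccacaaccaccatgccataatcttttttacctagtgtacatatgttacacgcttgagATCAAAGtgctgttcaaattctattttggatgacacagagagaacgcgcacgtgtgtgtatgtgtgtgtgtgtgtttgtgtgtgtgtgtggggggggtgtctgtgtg
60.2 kb downstream, fold enrichment 9.97, chr1:90538459-90538659: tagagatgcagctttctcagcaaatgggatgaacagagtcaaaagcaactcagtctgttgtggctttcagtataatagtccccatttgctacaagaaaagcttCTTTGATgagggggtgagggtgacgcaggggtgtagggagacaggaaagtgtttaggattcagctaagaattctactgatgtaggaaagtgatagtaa
75.6 kb downstream, fold enrichment 8.88, chr1:90523067-90523267: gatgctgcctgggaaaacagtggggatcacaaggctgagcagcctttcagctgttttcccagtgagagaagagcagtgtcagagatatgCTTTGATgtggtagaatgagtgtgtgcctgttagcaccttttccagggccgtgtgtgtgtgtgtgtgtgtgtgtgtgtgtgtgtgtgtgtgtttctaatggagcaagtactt
172 kb downstream, fold enrichment 4.99, chr1:90426528-90426728: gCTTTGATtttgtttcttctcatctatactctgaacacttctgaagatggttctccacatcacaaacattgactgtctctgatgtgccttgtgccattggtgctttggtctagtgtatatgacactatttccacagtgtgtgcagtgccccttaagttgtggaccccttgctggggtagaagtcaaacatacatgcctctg

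In the peak at 172 kb, the exception, the core lay 96 bp from the summit. The core-bearing peaks had fold enrichments from 4.99 to 34.1 with a median of 7.65, and the median of the peaks without one was 6.08. Strong peaks were thus found with and without the core: 3 of the 4 peaks at 20-fold enrichment or more had none within 100 bp. Copies farther from the summit occurred in the third strongest peak, as a second copy at 123 bp, in the peak 79.6 kb downstream, at 278 bp, and as a pair in the peak 124 kb downstream, at 181 and 193 bp. Counting any copy within the called borders gave 8 peaks (22.9%), against 14.2% of all peaks.

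The other cores were those of factor families that act beside Tcf1 in T cells. Runx factors, among them Runx3 of the CD8+ lineage, have a core that was found in 4 peaks (11.4%, 4.54 to 26.0), against 14.8% of the whole list. Among distal peaks the share was 12.1% at the locus and 20.5% over the list. Of these 4, the peak 115 kb downstream was the fourth strongest of the locus, with the core 23 bp from the summit, and the peak 227 kb downstream was the sixth, with the core at 51 bp. The ETS core was found within 100 bp of the summit in 0 of 35, which allows a share of up to 8.57% by the limit of 3 counts in the total (the Wilson upper bound is 9.89%), against 6.50% of the whole list and 2.58% of its distal peaks. Farther out but inside the peak, an ETS core lay 119 bp from the summit 3.805 kb upstream and 187 bp from that 91.3 kb downstream. At least 1 of the 3 cores was present in 10 peaks (28.6%), against 28.9% of all peaks, and 25 peaks held none of these letters in their 201 bases.

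A pair of weak peaks shared sequence with each other. The windows of the peaks 65.4 and 113 kb downstream, with fold enrichments of 4.10 and 4.83, aligned over 143 bases of which 130 (90.9%) were identical, the highest score of all pairs at the locus. The bases are shown so that the likeness can be read. At the peak 65.4 kb downstream the control level was the highest of the locus, 8.02 fragments, and at the peak 113 kb downstream it stood at the floor.
65.4 kb downstream, chr1:90533315-90533515: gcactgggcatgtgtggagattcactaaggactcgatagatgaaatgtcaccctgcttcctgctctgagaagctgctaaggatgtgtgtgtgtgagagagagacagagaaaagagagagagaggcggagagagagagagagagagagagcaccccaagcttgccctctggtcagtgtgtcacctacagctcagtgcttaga
113 kb downstream, chr1:90485434-90485634: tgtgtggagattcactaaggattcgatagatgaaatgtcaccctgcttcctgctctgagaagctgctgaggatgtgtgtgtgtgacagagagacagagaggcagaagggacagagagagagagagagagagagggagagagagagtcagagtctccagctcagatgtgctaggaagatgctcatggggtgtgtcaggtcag
Each of these windows held a dinucleotide repeat of 22 bases. Runs of at least 20 bases of such a repeat occurred in 5 of the 35 windows (14.3%), against 4.96% of all peaks, and the longest, of 62 bases, lay in the intronic peak 19.7 kb downstream. Stronger peaks held them too: a run of 42 bases at 75.6 kb downstream (fold enrichment 8.88) and of 24 bases at 205 kb (14.3). The part of repeats in the level of these peaks was not tested.

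Counted in the same way around each of 22380 protein-coding genes, the median gene had 6 summits in its body and the 200 kb on each side, and 85.4% had at least 1. Arl4c ranked 26th with its 35, and 30 genes (0.134%) had as many or more. By peaks of at least 4-fold enrichment it ranked 15th with 33. The rank moved with the window, to 13 with 100 kb on each side and 39 with 50 kb. At least 4 peaks of 20-fold enrichment or more, the number at Arl4c, were found around 257 genes (1.15%). The windows of neighbouring genes overlap, so these are not separate loci. Highest was the gene model Gm20388, with 118 summits at 2.44 per 100 kb of its long window. Drg1, which encodes a GTP-binding protein, had 55 summits of which 12 had at least 4-fold enrichment, and at 40 of them the control level was over 50 fragments. Tnrc6b, of microRNA silencing, had 46 and Rara, a retinoic acid receptor, 44.

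Ets1, which encodes an ETS factor of lymphoid cells, had the highest count among genes with at most 1 other protein-coding gene in the window. It had 44 summits, of which 37 had at least 4-fold enrichment, and its median gap of 3177 bp was close to the 3.08 kb of Arl4c. The Ets1 gene body, 121.6 kb long, held 18 summits or 1.48 per 10 kb, and that of Arl4c, 29.1 kb long, held 7 or 2.41 per 10 kb. The strongest peak had a fold enrichment of 49.7 at Ets1 and 59.8 at Arl4c, and the median was 8.34 and 6.23. No test of the difference was made, since both were picked by their counts.

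**Figure D5:**
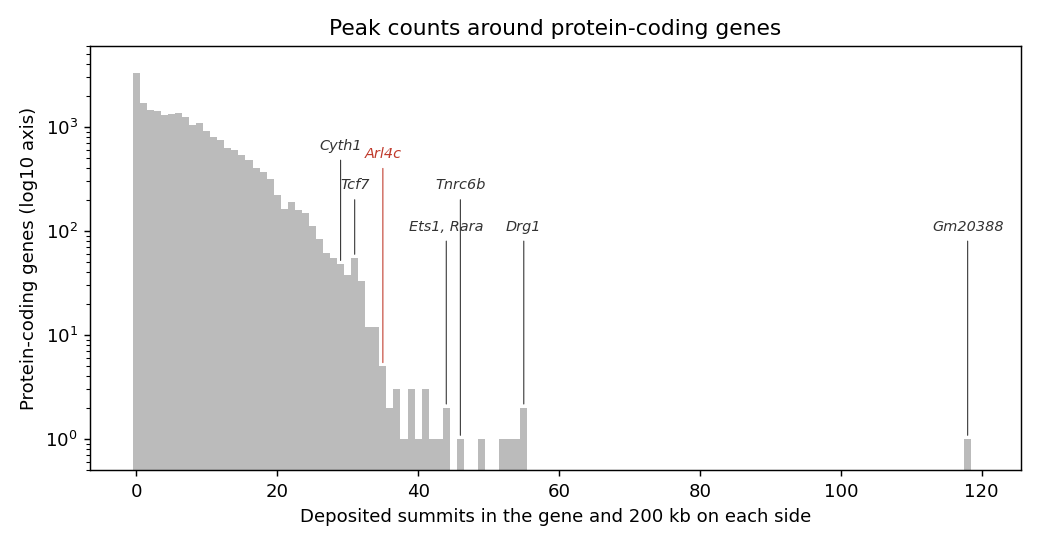
Histogram of the 22380 protein-coding genes (count on a log axis) by the number of Tcf1 summits in the gene and 200 kb on each side, with lines at Arl4c, the 5 genes set beside it, Cyth1 and Tcf7. Arl4c, at 35, stands in the thin right tail, between Tcf7 at 31 and Ets1 and Rara at 44.

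The 14 genes with known ties to Arl4c, its paralogs included, had between 5 and 29 summits with a median of 8, and 10 were above the median of 6 for all genes. All 14 had at least 1, as did 85.4% of protein-coding genes. Most of these summits lay outside the genes, in windows with 1 to 26 other protein-coding genes: 6 of the 14 had none in the gene body, 7 had 1 or 2, and Cyth1 had 13. The paralogs Arl4a and Arl4d had 5 and 8. Among the cytohesins, the exchange factors that Arl4c recruits, Cyth1 had 29, Cyth4 had 21, Cyth2 had 17 and Cyth3 had 12. Arf6, the GTPase they activate, had 17. Of the GTPases that act on actin, Rac1 had 15 and Cdc42 had 5, and the windows of Rac1 and Cyth3 overlap. The actin crosslinker Flna had 7. For cholesterol, Abca1 and the liver X receptor gene Nr1h2 had 5 each and Nr1h3 had 8. Ctnnb1, which encodes β-catenin, had 8.

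At Tcf7, the gene deleted in the control cells, there were 31 summits in the same kind of window, 10 of them in the gene body with fold enrichments from 3.43 to 10.3. At 2 of these 10 the control level was above the floor, at most 6.02 fragments, and the highest control level in its window was 17.4. The strongest peak of the window had a fold enrichment of 142. These levels do not check the deletion, for which neither the transcript nor the protein was measured here.

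The limits of the window fell near a peak on the 3′ side only. The outermost peak inside, at chr1:90371112-90371685, with a pileup of 34 and a fold enrichment of 5.45, lay 1.65 kb within the border. The first outside, at chr1:90358966-90359294, with a pileup of 31 and a fold enrichment of 4.99, had its summit 239.6 kb from the start site, outside it, so peaks went on toward Spp2, the next gene on that side, whereas on the 5′ side the empty stretch began inside the window.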

How the data were processed

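Tcf1 ChIP-seq in naïve CD8+ T cells was measured in 1 WT and 1 Tcf1-deficient library. The authors aligned the reads to mm9 with Bowtie2 2.2.5 and called peaks with MACS 2.1.1.20160309 on paired ends, with the Tcf1-deficient library as control, a p limit of 1e-05 and 1 fragment kept per position. Per the file headers, 36938606 of 46428124 WT fragments (79.6%) and 27625250 of 36118114 control fragments (76.5%) were kept. The deposited pileup is a signal, the coverage in WT fragments at the summit. The deposited fold enrichment is a ratio of pileup to local control level, each plus a pseudocount of 1, and the deposited −log10 q (used for the order only) and −log10 p (not used) compare the 2 libraries, not the genotypes. The authors' p and q are not printed here.

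Control levels were computed back from pileup and fold enrichment. Positions were joined to NCBIM37 (mm9) sequence and GENCODE vM1 genes, and sequences come from that genome. Cores of 7 bases were searched on both strands within 100 bp of summits. Poisson intervals (95%) cover counting error of fragments only. Wilson intervals and intervals of a median (95%) treat peaks as independent draws, although the peaks of 1 locus are not replicates. The scripts were tested on simulated data. No test was run: there was no replicate, and the position rule chose the peaks of 1 contrast. The 5 genes set beside Arl4c were those with the highest counts of summits, 1 per locus and at least 1 Mb apart, and the 14 listed genes were chosen for their known ties to Arl4c. Peaks described singly were the 8 strongest, the weakest, widest and narrowest, those with a core, those at the gene and those at the window's borders, and others were chosen after their values were seen. The locus, the cores and the lists were chosen with earlier results of these data known. Alternatives were the window size, the fold minimum, merging of close peaks, the overlap rule, the core window, ranking measures and the pseudocount. Python 3.11.15, numpy 2.4.6, pandas 2.3.3, scipy 1.17.1 and matplotlib 3.10.9 were used.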

Additional observations from a re-analysis of the deposited data

How the results depend on the processing

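Of 33 alternatives to 9 results, 24 stayed within the range set for the value (1.5 times for counts and ranks, the 95% interval for medians and shares) and 9 moved it. The number of peaks was 20 within 50 kb, 11 at a fold minimum of 8 and 23 after merging peaks 1 kb or less apart, and it was 27 within 100 kb and 37 within 300 kb. At a fold minimum of 8 the median gap was 12914 bp, the median fold enrichment 13.2 and the median width 767 bp. Merging gave a median gap of 8411.5 bp, inside the wide interval of the median but over 1.5 times its value. The rank of Arl4c by count was 13 within 100 kb, 15 at a fold minimum of 4, 39 within 50 kb and 34 per 100 kb of window. Without the pseudocount the median control level was 6.27 fragments. For the Tcf/Lef core, 50 bp on each side of the summit gave 5 peaks (14.3%, all peaks 7.70%) and 250 bp gave 7 (all peaks 13.7%). The core cut to 6 bases was in 7 peaks (20%), against 25.3% of all peaks, and 4 related cores, an alternative chosen after seeing the data, were in 9 (25.7%), against 27.1%, so the share at the locus was above that of all peaks with the 7-base core and below it with these. Keeping the peaks with control at its floor, also chosen after seeing the data, left 31. No paired analysis was possible because there was 1 library per group and no test.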
